A study of Homo sapiens with 2 samples.

Results

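Tail-to-tail pairs are neighbouring genes on opposite strands that run toward each other and share the DNA at their 3' ends. They were taken from GENCODE 29 (GRCh38) as protein-coding genes off chromosome Y whose span overlaps exactly 1 protein-coding gene of the other strand, where the overlap covers the 3' ends only and neither gene contains the other. By that rule 1744 genes qualified when taken singly. In 676 pairs both genes qualified, which gives 1352 member genes on 23 chromosomes, out of 58347 genes in the counts file. The file held 1350 of them and both genes of 674 pairs. TBCE (ENSG00000284770) and AL162377.3 were not matched by identifier, so TBCE with B3GALNT2 and AL162377.3 with WDFY2 do not enter the values per pair.

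The samples were 2 biological replicates of untreated HEL cells, an established human erythroleukemia line, and formed 1 group. RNA bound by U2AF2 was profiled by eCLIP: RNA and protein were crosslinked with ultraviolet light at 400 mJ per square cm, trimmed with RNase I, pulled down with 8 µg of an antibody to U2AF2 and sequenced in paired 100-base reads. No size-matched input or mock library was used here, so all values are counts and not enrichments.

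U2AF2 is the large subunit of the U2 auxiliary factor. It binds the stretch of pyrimidines just before the AG that ends an intron, the 3' splice site, and helps to bring the U2 snRNP to the branch point. In a tail-to-tail pair the last exons and 3' untranslated regions of each gene often lie across exons or introns of the other, so reads from the shared DNA can be given to either gene depending on the strand that the counting used. The strand setting of the counting is unknown. For reads inside the shared DNA it is therefore uncertain which of the 2 genes the RNA came from. Counts are per whole gene and cannot be placed inside or outside the overlap. Some genes put few exonic bases into it, such as MYH7B with 34 of 7931 and CTSW with 1 of 1719. There the annotated partner covers little of the gene. The strand of reads outside the overlap is uncertain too.

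The 3' splice sites below show what lies on the other strand of the leading genes. They belong to the partner gene, and each site shown lies wholly inside exons of the gene with more counts. Sites inside exons of the gene with fewer counts are not shown. All are the last 30 bases of an intron, 5' to 3' on the partner's strand, in GRCh38 coordinates, read from the GENCODE 29 transcripts of the gene that holds them. Capitals mark the longest unbroken run of C and T, or the last of equally long runs, as in the BMP2K site.
MAN2C1 site inside NEIL1, chr15:75356033-75356062, minus strand: agagccttcatggCCCCTCCTgttctccag
MAN2C1 site inside NEIL1, chr15:75356450-75356479, minus strand: caccagcattgTTTCCTggtcgtaccccag
BMP2K site inside PAQR3, chr4:78887144-78887173, plus strand: tttttatttcgtttcatcttaTTTTTgcag
EDC3 site inside CLK3, chr15:74640620-74640649, minus strand: TTCCCTTTCTCTTCTCCTTTTgaactgcag
EDC3 site inside CLK3, chr15:74635627-74635656, minus strand: ctgatactgcttcttcaCCTTCTTTTCCag
HNRNPU site inside COX20, chr1:244843142-244843171, minus strand: tgctgctgctgccgttgtgTTTTCTTTCag
HNRNPU site inside COX20, chr1:244843182-244843211, minus strand: acttcgtttacattgaCTTCTatgctcaag
The first EDC3 site has a run of 21 pyrimidines, and the runs in the other 6 are 5 to 11 bases long. NEIL1 exons hold 8 such MAN2C1 sites, of which 2 are shown. MYH7B and LENG9, which also lead their pairs, hold none. On the side with fewer counts, MAN2C1 and EDC3 exons hold 0 sites of their partners. BMP2K exons, however, hold 2 PAQR3 sites, against 1 BMP2K site in PAQR3 exons. HNRNPU exons hold 4 COX20 sites, against 2 HNRNPU sites in COX20 exons. Partner sites thus did not mark the leading gene in all of these pairs. A match of position and letters describes the locus and does not show that U2AF2 was bound there.

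In the 12 leading pairs the gene with more counts held from 63.7% (SNAPC3) to nearly all (MYH7B) of the pair's counts. The highest pair was NEIL1, a DNA glycosylase gene of base excision repair, with MAN2C1, a mannosidase gene. NEIL1 held 3727 counts in replicate 1 and 5037 in replicate 2, and MAN2C1 held 26 and 27. Scaled to library size, NEIL1 reached 3738 ± 57.7 CPM (counts per 1000000 scaled gene counts, SD, n = 2) and MAN2C1 23.0 ± 3.91 CPM. NEIL1 thus held 99.4% of the pair's counts (exact 95% binomial interval 99.2 to 99.6). The intervals here cover counting error only. The 2 genes share 1908 bases (chr15:75355207-75357114), all exonic and none coding in NEIL1, and 641 bases of the stretch are coding in MAN2C1.

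PAQR3, a Golgi membrane protein gene, held 2742 and 3644 counts, and BMP2K, a protein kinase gene, held 63 and 78. They share 29246 bases. CLK3, a kinase that phosphorylates SR splicing factors, held 2120 and 2928, against 49 and 71 on EDC3, an mRNA decapping gene. In each of these pairs the libraries gave the same order, and the gene with more counts held 97.8% and 97.7% of the total.

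Some leading pairs share little sequence. MYH7B, a myosin heavy chain gene, held 2207 and 2965 counts, although it shares only 34 bases with TRPC4AP (1 and 0 counts). LENG9 held 2014 and 2458 counts beside 104 and 94 on LENG8, with 242 shared bases. KANSL1L held 1738 and 2712 beside 1 and 3 on RPE, an enzyme of the pentose phosphate pathway, with 837 shared bases. PPT1, a lysosomal thioesterase gene, held 1725 and 2180 beside 47 and 59 on CAP1, an actin regulator, with 1189 shared bases. These overlaps are exon of both genes throughout, and none of them holds a 3' splice site of the partner.

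In some leading pairs the gene with fewer counts was high too. COX20, a cytochrome oxidase assembly factor, held 1496 and 2249 counts and HNRNPU, a nuclear RNA-binding protein, 498 and 744. SNAPC3, a subunit of the snRNA-activating complex, held 1067 and 1656 and PSIP1, a chromatin protein, 640 and 912. COX20 had 75.1% of its pair's counts (exact interval 73.9 to 76.3) and SNAPC3 63.7% (62.2 to 65.1). The other leading pairs were LRRC24 (2017 and 2604) with LRRC14 (406 and 569), TAF10 (1527 and 2145), a subunit of TFIID, with the integrin-linked kinase ILK (268 and 376), and LRRC41 (1359 and 1860) with the recombination gene RAD54L (146 and 169). LRRC24 exons hold 1 partner 3' splice site and LRRC14 exons hold 5. TAF10 exons hold 12 and ILK exons 0, and LRRC41 exons hold 4 and RAD54L exons 0. SNAPC3 and PSIP1 exons hold 1 each. NEIL1, CLK3, KANSL1L, TAF10, ILK, LENG8, LRRC24 and MAN2C1 each have at least 1 further gene over their exons, so reads on them may also stem from that gene.

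**Figure D1:**
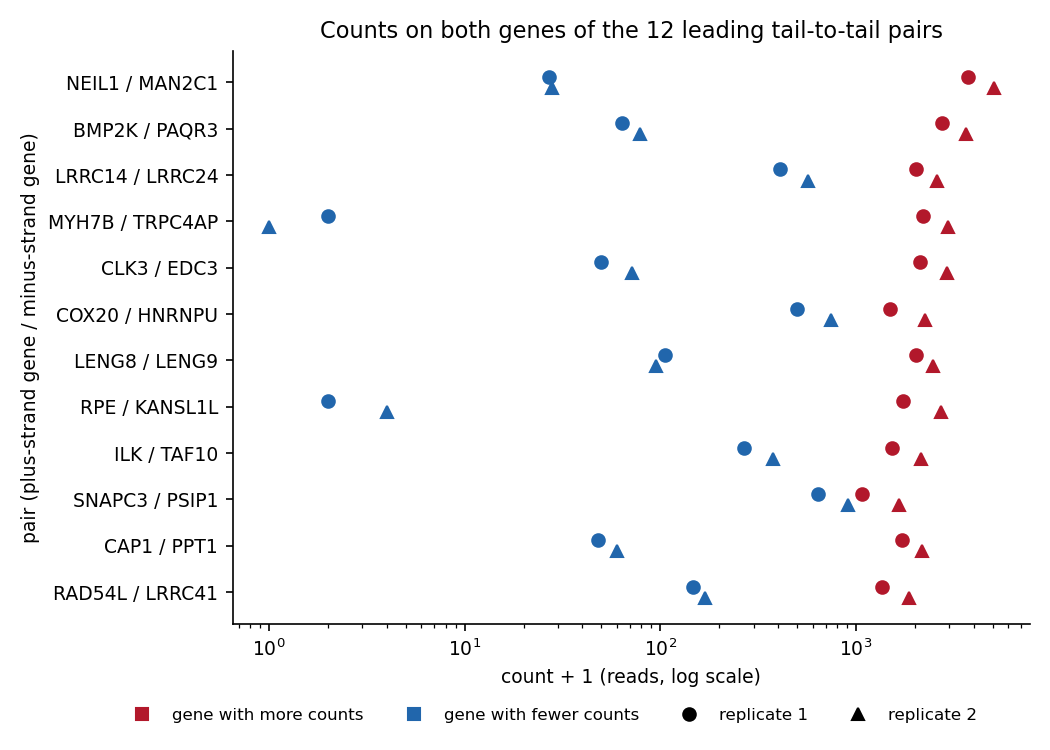
Counts plus 1 (log axis) on both genes of the 12 pairs with the highest summed CPM, with circles for replicate 1 and triangles for replicate 2. The gene with more counts is red, from 1067 (SNAPC3) to 5037 (NEIL1), and its partner is blue, from 0 (TRPC4AP) to 912 (PSIP1).

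Across all members, 884 of 1350 genes (65.5%) were covered, meaning that both libraries gave them 10 counts or more, against 24.9% of the 19772 protein-coding genes off chromosome Y in the table. In replicate 1 alone the share of members at 10 counts or more was 66.1%, and in replicate 2 it was 70.9%. The median over members was 66 counts in both libraries together (28 in replicate 1 and 37 in replicate 2), and 4 over all protein-coding genes. Members were 2.32% of the genes in the table and held 14.7% ± 0.0772 (SD, n = 2) of the gene counts. At the low end 60 members held 0 counts in both libraries, and at the high end 79 held 1000 or more. From 3 counts, a gene at 0 may still lie at up to 2.98 CPM in replicate 1 or 2.25 CPM in replicate 2.

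Genes of the 2 other kinds of opposite-strand pair lay lower. Covered genes numbered 446 of 1011 (44.1%) in head-to-head pairs, which overlap at their 5' ends, and 186 of 481 (38.7%) in nested pairs, in which 1 gene contains the other. Their medians were 18 and 9 counts. Among 15132 genes with no protein-coding gene opposite, the share was 15.9% and the median 3. Members have more exonic bases per gene, with a median total exonic length of 5112 bases against 4145 in that last class. Within genes of 3000 to under 6000 exonic bases the shares were 68.5% for tail-to-tail, 45.9% for head-to-head, 42.4% for nested genes and 17.5% for genes with none opposite. These are descriptions over genes of the same 2 libraries, and no test between classes of genes was made.

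The rule requires at least 1 shared base. To see what lies just beyond it, neighbouring protein-coding genes that face each other with their 3' ends across a gap, with no protein-coding gene in between or opposite, were counted in the same way. Where a pair shares 1 to 99 bases, 57.1% of the genes were covered (113 of 198). With a gap of 1 to 99 bases the share was 55.4% (51 of 92 genes), with 100 to under 1000 bases 49.5% (281 of 568), and with 1000 to under 10000 bases 30.6% (522 of 1708). The shares on both sides of the limit were therefore within 2 percentage points of each other, while the medians per pair were 131 counts inside it and 84 outside.

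At the limit itself, CTSW, a protease of cytotoxic lymphocytes, held 103 and 107 counts and FIBP 12 and 17, with 1 shared base. REC114, a meiotic recombination gene, held 145 and 210 and NPTN, a neuroplastin gene, 14 and 15, also with 1 shared base. ALAS2, the heme synthesis enzyme of red cells, held 65 and 57 and APEX2, a DNA repair nuclease gene, 3 and 6, with 3 shared bases. In these 3 pairs the gene with more counts held 87.9%, 92.4% and 93.1% of the total. SPTAN1 (39 and 48) and WDR34 (3 and 7) share 2 bases, and FAM162A (14 and 22) and WDR5B (12 and 24) share 3. Just outside, NOP56, a snoRNP protein gene, held 42 and 22 counts and IDH3B, a citric acid cycle enzyme, 29 and 42, across a gap of 1 base. PRAC2 (0 and 0) and HOXB13 (5 and 9) are 4 bases apart, and TJP3 (10 and 20) and APBA3 (2 and 10) are 5.

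**Figure D2:**
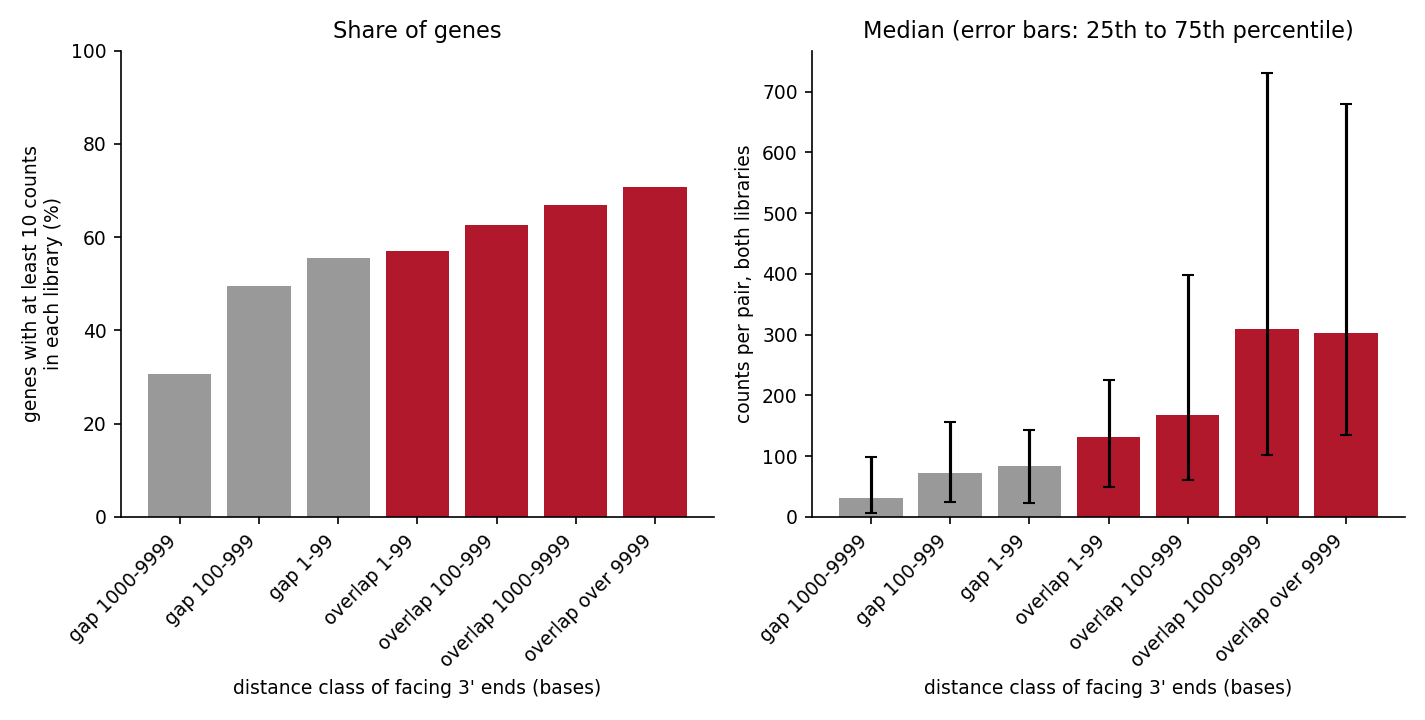
Left, percent of genes that were covered (10 counts or more in both libraries), and right, median counts per pair over both libraries with the 25th to 75th percentile as bars, for facing pairs with a gap (grey) and with an overlap (red), by length in bases. The share climbs from 30.6% at gaps of 1000 to under 10000 bases to 70.7% at overlaps of 10000 bases or more, with 55.4% and 57.1% on the 2 sides of the limit.

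Overlaps ran from 1 to 153280 bases with a median of 2191.5. Pairs with 1 to 99 shared bases (99 pairs) had a median of 131 counts over both genes and libraries, with 51 in replicate 1 and 66 in replicate 2. The median was 167 counts for 100 to under 1000 bases (138 pairs), 310 for 1000 to under 10000 bases (285 pairs) and 303.5 for 10000 bases or more (152 pairs). The last 2 classes lay close in each library, with 128 and 126.5 counts in replicate 1 and 175 and 176 in replicate 2. The 25th to 75th percentiles of the shortest and the longest class overlapped, at 49 to 224.5 and 134.5 to 679.75 counts. Across the 674 pairs the Spearman rho of overlap length with the pair's CPM was 0.205 (0.196 in replicate 1 and 0.214 in replicate 2). On the side with more counts it was 0.201, and on the side with fewer it was 0.114. All points share the same 2 libraries.

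Of the 5 longest overlaps, 3 held at most 40 counts over both genes and libraries. C12orf40 held 10 and 30 counts and SLC2A13, a myo-inositol transporter gene, held 0 and 0, with 153280 shared bases. SYNE2, a giant nuclear envelope protein gene, held 7 and 14 and ESR2, an estrogen receptor gene, 2 and 6, with 142202. OPRM1, an opioid receptor gene, held 8 and 12 and IPCEF1 1 and 3, with 92372. GRIK1, a glutamate receptor gene, with 188 and 262 counts opposite the transcription factor gene BACH1 (1 and 3), and BCL2L14 with 87 and 130 opposite the Wnt co-receptor gene LRP6 (2 and 0) were higher. In these 5 pairs at most 164 of the shared bases were exon of both genes.

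Bases that are exon of both genes went along with counts more closely than the length of the shared span. The Spearman rho with the pair's CPM was 0.398 (0.398 in replicate 1 and 0.396 in replicate 2, 674 pairs). The median was 90 counts in 67 pairs with no such base, 142 in 137 pairs with 1 to 99, 277 in 349 pairs with 100 to under 1000 and 528 in 121 pairs with 1000 or more. The 67 pairs with none had long overlaps, with a median of 12621 bases. JAK2, the kinase gene mutated in myeloproliferative neoplasms, lies in such a pair and held 61 and 88 counts. Its partner INSL6, a relaxin-like hormone gene with 632 exonic bases opposite JAK2, held 303 and 437. That pair is not typical of the 67: its 889 counts over both genes and libraries were the most among them. Head-to-head pairs gave a rho of 0.359 with exon-on-exon bases and 0.0963 with span overlap (504 pairs). Nested pairs gave 0.472 and 0.159 (238 pairs). The order of the 2 measures was thus the same in both, and the rho with exon-on-exon bases was highest in nested pairs.

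**Figure D3:**
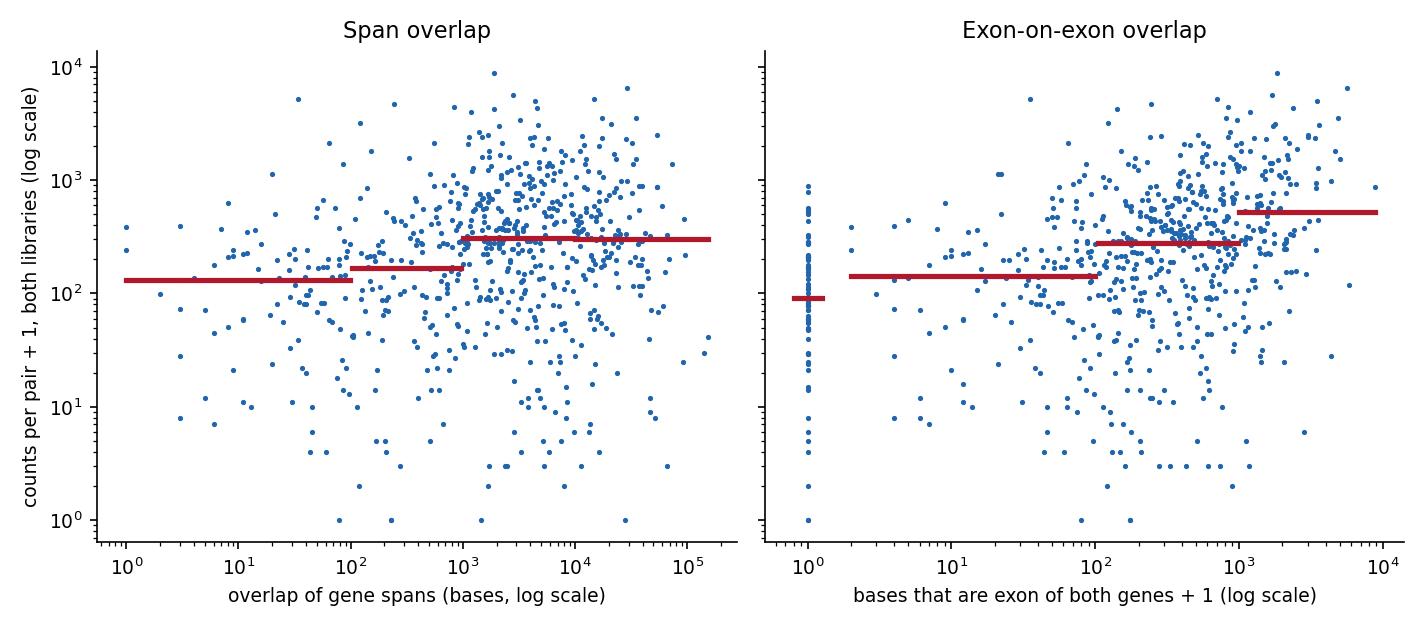
Counts per pair plus 1 over both libraries (log axis) against the overlap of the gene spans (left) and against the bases that are exon of both genes plus 1 (right), each point a pair and each red line the median of a length class. Medians on the left are 131, 167, 310 and 303.5 counts, and on the right they go from 90 to 528.

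Which gene of a pair held the counts was far from even. Among the 608 pairs with at least 20 counts, the gene with more counts held a median of 88.1%, and in 283 pairs (46.5%) it held over 90%. In 587 of the 608 pairs the same gene led in both libraries. The plus-strand gene led in 302. Only 65 pairs were split with under 60% on either gene. The most even of those with at least 100 counts were TXLNG (21 and 46) with RBBP7 (18 and 50), a histone-binding protein gene, then GTF3A (28 and 28) with MTIF3 (24 and 33), and BAG2 (76 and 117), a chaperone cofactor gene, with RAB23 (79 and 109). Counts on the plus gene and on the minus gene had a Spearman rho of 0.0653 across the 674 pairs, so a high count on 1 gene said little about the other. The split was not worked out for other kinds of pair or for unrelated genes. Whether it is particular to tail-to-tail pairs was therefore not tested.

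The number of exonic bases that a gene puts into the overlap did not mark the leading side. Where the genes differed in it, the gene with more held more counts in 204 of 405 pairs (50.4%, with 50.5% in replicate 1 and 50.1% in replicate 2). The longer gene by total exonic length led in 287 of 607 pairs (47.3%). Across the 1350 members, Spearman's rho with gene CPM was 0.208 for exonic bases inside the overlap, 0.0235 for those outside it and 0.00133 for gene span.

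**Figure D4:**
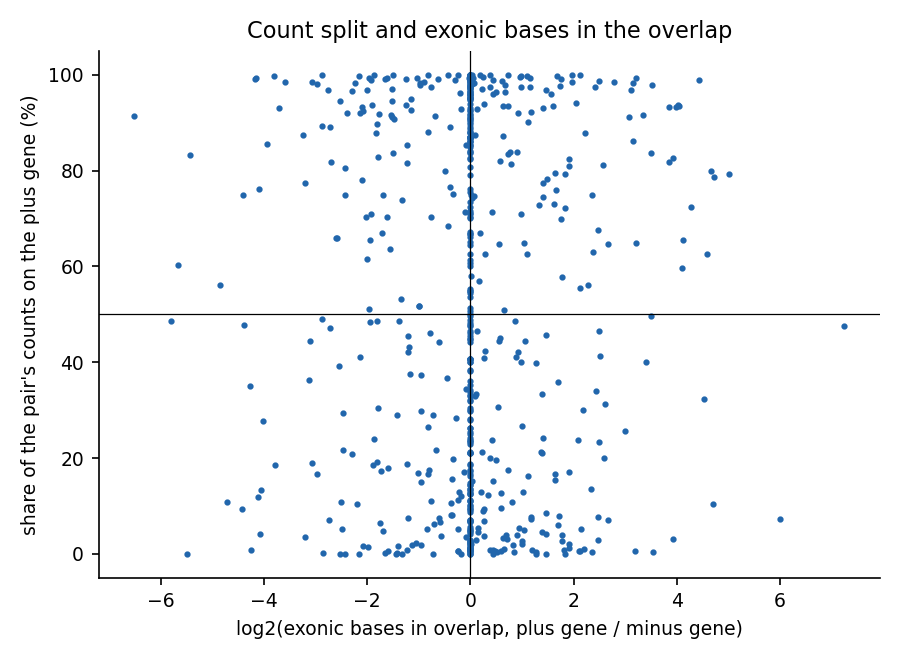
Share of a pair's counts that lies on the plus-strand gene (percent) against the log2 ratio of exonic bases in the overlap, plus gene over minus gene, for the 608 pairs with at least 20 counts. Many points lie near 0% or 100%, with over 90% on 1 gene in 283 pairs, and points at a ratio of 0 have equal exonic bases.

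Exons of 513 members hold at least 1 annotated 3' splice site of the partner together with the 30 bases before it, as in the sequences shown above for NEIL1, PAQR3, CLK3 and COX20. Their median was 134 counts (55 in replicate 1 and 79 in replicate 2), against 50 (22 and 28) in the 837 members that hold none. On the log2 CPM scale the medians differed by 1.35 ± 0.118 (SD over the 2 libraries). The median was 102 counts with 1 site (297 genes), 146 with 2 (121 genes), 256 with 3 or 4 (73 genes) and 414.5 with 5 or more (22 genes). Genes with more sites also have more exonic bases in the overlap, with medians of 414 bases without a site and 3632 with 5 or more. At 1000 to under 2000 exonic bases the medians were 145 counts with a site (143 genes) and 73 without (121 genes), and at 2000 to under 5000 bases they were 161 (167 genes) and 105 (104 genes).

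Sites at the other end of the intron gave similar values, though they were counted under a looser condition. For a 5' splice site only the first intron base had to lie inside the gene's exons. The median was 99 counts for 261 genes whose exons hold only 3' splice sites of the partner and 101 for 39 genes that hold only 5' splice sites. It was 180.5 for 252 genes with both and 48 for 798 genes with neither. Within pairs where only 1 gene holds partner 3' splice sites, that gene led in 117 of 204 (57.4%). Of the 939 sites, 931 (99.1%) end in AG. The last 30 intron bases had a median of 20 pyrimidines in genes at or above 134 counts and 19 in genes under it, and the median longest run was 8 against 7 bases.

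**Figure D5:**
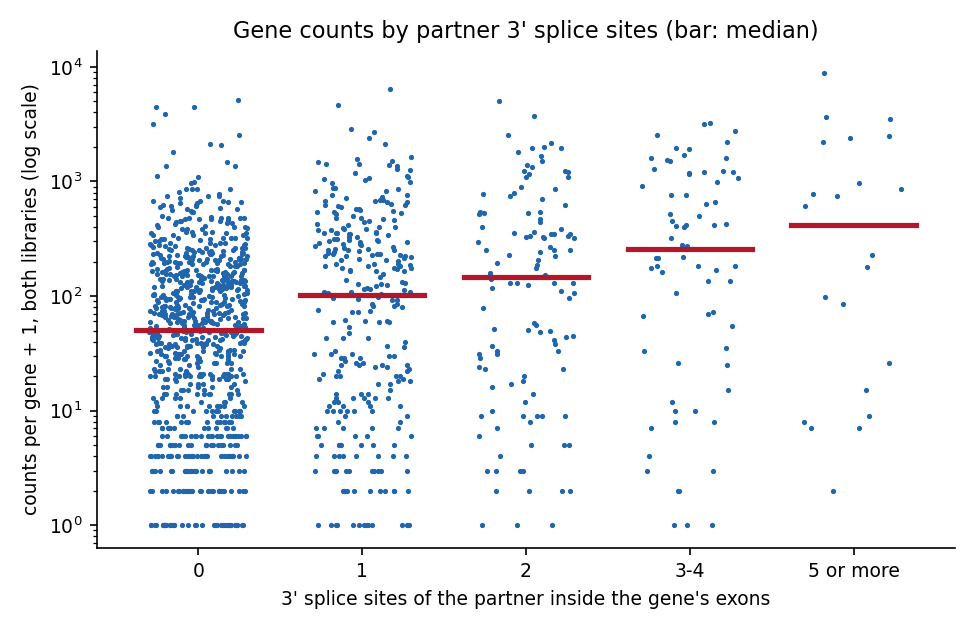
Counts per gene plus 1 over both libraries (log axis) by the number of the partner's 3' splice sites inside the gene's exons, each point a member gene and each red line a median. Medians go from 50 counts with no site to 414.5 with 5 or more, and the 25th to 75th percentiles of these classes, 9 to 151 and 16.75 to 1900.5 counts, overlap.

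Genes of related function were followed on both sides of their pairs. Each pair without a tie has 1 leading gene, so over all members the partner leads as often as it trails. Counts of leading partners in a list are to be read beside that. Likewise, the number of covered genes in a list is to be read beside the 65.5% (884 of 1350) over all members. Of 7 RNA helicase genes among the members, 5 were covered, and in 7 of 7 pairs the partner held more over both libraries together. DHX32 held 69 and 114 counts opposite BCCIP (86 and 103), so that order turned in replicate 2. DDX27 held 11 and 25 opposite ZNFX1 (181 and 270) and DDX17, an abundant nuclear helicase, held 4 and 3 opposite KDELR3 (231 and 395), with which it shares 8 bases. The median was 36 counts for the helicases and 347 for their partners. Cytosolic ribosomal protein genes gave the same order in 4 of 5 pairs. RPL5 held 0 and 3 opposite FAM69A (312 and 434), RPL35 held 1 and 0 opposite WDR38 (100 and 121), and RPS23 held 31 and 43 opposite the autophagy gene ATG10 (351 and 501). RPL28 (39 and 51) led over UBE2S (3 and 8). Ribosomal protein genes have many near-identical copies, and multimapping reads were not in the gene counts, so these values are uncertain.

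Splicing and RNA-binding genes numbered 11 members, 9 of them covered, and the partner led in 6 pairs. Their median was 188 counts, against 10 over all 125 genes of that list. This was not particular to splicing genes. In every other list too the members had a higher median than the whole list, with 233 against 11.5 for DNA repair and 36 against 16 for RNA helicases. Over all members the median was 66 counts, against 4 over all protein-coding genes. SRSF9, an SR protein gene, held 82 and 106 opposite GATC (1248 and 1598), a subunit of the mitochondrial glutamyl-tRNA amidotransferase. PCBP2, a poly(C)-binding protein gene, held 59 and 81 opposite MAP3K12 (606 and 867). HNRNPAB held 105 and 136 opposite PHYKPL (415 and 577). CLK3, by contrast, led its pair.

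DNA repair genes numbered 15 members, 11 of them covered, and their partners led in 9 pairs. MSH6, a mismatch repair gene, held 1038 and 1505 opposite the F-box gene FBXO11 (259 and 343) and led. FANCD2, a Fanconi anemia gene, held 0 and 3 opposite FANCD2OS (175 and 257), and ERCC2, a helicase of nucleotide excision repair, held 3 and 3 opposite KLC3 (311 and 432). Of 18 transcription and chromatin genes, 10 were covered and the partner led in 12 pairs. TAF10 was highest, and MED28, a Mediator subunit, held 5 and 6 opposite FAM184B (539 and 725).

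Of 6 erythroid and megakaryocyte genes, 4 were covered and the partner led in 2 pairs. SPTB, the beta-spectrin gene, held 291 and 376 opposite PLEKHG3 (80 and 100). TUBB1, the platelet tubulin gene, held 97 and 125. The other lists gave the partner more counts in 3 of 4 myeloid malignancy drivers (led by JAK2), 5 of 7 mitochondrial ribosome and aminoacyl-tRNA synthetase genes (led by MRPS25, 223 and 294), 6 of 9 proteasome and ubiquitin genes (led by UBE2N, 237 and 334) and 1 of 2 mRNA 3' end formation genes (led by CPSF1, 91 and 135). Some list members lie opposite each other (USP8 and USP50, RPL28 and UBE2S, ALAS2 and APEX2) and so share a pair. Whether any list differs from the other members was not tested.

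Pairs without any count were rare, at 5 of 674. The longest were ZNF483 with PTGR1, a prostaglandin reductase gene, which share 28123 bases with no base in exons of both, SCGB3A2 with C5orf46 (1466 bases) and the histone genes HIST2H3A and HIST2H4B (230 bases). Histone genes have near-identical copies, so the value of the last pair is uncertain.

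Most members had close values in the replicates, with exceptions. Log2 ratios of replicate 2 over replicate 1 had a median size of 0.18 in the 884 members tested and 0.21 in all 8983 genes tested. With an exact, two-sided binomial test per gene and Benjamini-Hochberg adjustment over all 8983, 6 members (0.679%) were called, against 0.501% of all genes. At an unadjusted p under 0.05 there were 98 members (11.1%), against 8.56% of all genes. Both libraries belong to the same group, and only counting error enters this test. Higher in replicate 2 were MYOCOS, which lies opposite the myocilin gene MYOC (25 and 102 counts, adjusted exact p = 2.68e-05), KANSL1L (adjusted exact p = 3.6e-05), SNAPC3 (0.0132), COX20 (0.0308) and NUDT4, which has a near-identical copy (119 and 237 counts, 0.0431). BEST1, a chloride channel gene that lies opposite the ferritin gene FTH1 (2 and 1 counts), was higher in replicate 1 after scaling, with 1122 and 1250 counts (adjusted exact p = 0.0104). MYOCOS differed by 1.63 on the log2 scale and NUDT4 by 0.59. The ratios of KANSL1L, SNAPC3, COX20 and BEST1 were 0.24, 0.23, 0.19 and -0.25. The minimum of 10 counts in both libraries kept ARMC8 (1 and 91 counts) and C1orf123 (4 and 34 counts) out of this test. Without the minimum (30752 genes tested) both were called, with adjusted exact p = 1.24e-17 and 0.0109, and COX20 and NUDT4 were not.

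The gene counts of the whole table summed to 995428 in replicate 1 and 1350116 in replicate 2. Reads tallied as ambiguous between genes numbered 17816 and 23938, or 0.0307% and 0.0301% of all reads. Gene counts were themselves only 1.71% and 1.70% of all reads, so beside them the ambiguous reads are a larger share. As a check of the cell type, the 12 erythroid markers summed to 105 and 137 counts with none at 0, and the 10 megakaryocyte markers to 374 and 490 with GP1BB and PF4 at 0. Only 2 markers of each of these lists were covered. ALAS2 alone, itself a gene of a tail-to-tail pair, held 65 and 57 of the erythroid counts. T cell markers summed to 4 and 9, B cell markers to 8 and 15, neuronal markers to 9 and 16, hepatocyte markers to 7 and 6, and monocyte and granulocyte markers to 51 and 65 with 4 of 6 at 0. Since the strand is uncertain these sums do not measure the markers' RNA.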

How the data were processed

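U2AF2 eCLIP was measured in 2 biological replicates of HEL cells. The values deposited by the authors are whole-number read counts for each gene, not normalized. STAR 2.7.0f, cutadapt and the build GRCh38.p10 are named in the submitters' processing notes. How reads were counted, with which strand setting and annotation, and whether PCR duplicates were removed is not given in the sources used here. Tallies of reads not counted to a gene (on no feature, multimapping, unmapped or ambiguous), 98.3% of all reads in each library, stayed out of library sizes.

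Genes were matched to GENCODE 29 by identifier without version (99.5% of 58347), and 95.5% also had the same version. Exons of all transcripts of a gene were merged. Introns under 30 bases were left out of the splice sites. Library sizes were scaled by TMM in edgeR 4.0.16 under R 4.3.3, on genes with 10 counts or more in both libraries, giving factors of 1.01 and 0.987. CPM used these sizes, and log2 CPM a prior count of 2. With 1 group no contrast existed for edgeR's quasi-likelihood test. Replicates were compared by an exact binomial test, checked on simulated counts. Correlations run over loci that share both libraries and carry no p. Alternatives were DESeq2 1.42.0 size factors, other count minimums and prior counts, pairs with at least 1 qualifying gene, pairs without further genes, and each replicate alone. Python 3.11.15, numpy 2.4.6, scipy 1.17.1, pandas 2.3.3 and matplotlib 3.10.9 did the rest.

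Named were both genes of the 12 pairs with the highest CPM, of the 5 longest and 5 shortest overlaps, of the 3 most even pairs with at least 100 counts, of the 3 longest pairs at 0 counts and of the 3 smallest gaps, members called between replicates, and the highest member of each list. Other list members were chosen after their values were seen. Members and lists were chosen with earlier results of these data known.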

Additional observations from a re-analysis of the deposited data

How the results depend on the processing

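With the 2 libraries taken singly, values ranged from 66.1% to 70.9% for members with at least 10 counts, from 4.881 to 4.882 for the median log2 CPM (4.87 over both), and from 57.6% to 58.7% for genes at gaps of 1 to 99 bases, an alternative chosen after seeing the data (55.4% with both). The share of members was 72.7% at 5 counts and 55.0% at 20. The median log2 CPM was 4.81 when 1 qualifying gene sufficed, 4.69 in 333 pairs without further genes, 4.81 with a prior count of 0.5 and 6.13 among covered genes (10 counts or more in both libraries). The rho of pair CPM with overlap was 0.154 when 1 qualifying gene sufficed (1051 pairs), 0.191 without further genes, 0.228 in pairs with at least 20 counts and 0.398 with exon-on-exon bases. The rho with exonic bases in the overlap was 0.197 without further genes and 0.262 among covered genes. The gene with more exonic bases led in 48.6% of pairs when 1 qualifying gene sufficed, 48.7% without further genes and 52.9% of pairs with at least 100 counts, and the gene with the larger share of its span in the overlap led in 51.9%. The causes of these shifts were not tested. The difference by partner 3' splice sites stayed within its spread over the libraries in all 7 alternatives. Of these, 2 are the single libraries that define that spread, so they do not count as checks. The same 6 members were called between replicates with DESeq2 size factors (49 genes over the table, against 45). Without a count filter 6 members were called (71 genes over the table), 4 of them shared, with ARMC8 and C1orf123 in place of COX20 and NUDT4. No paired analysis was possible because there was 1 group. Depth limits the 60 members at 0 counts, whose level is known only to lie under the limit of 3 counts.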
